A study of Arabidopsis thaliana with 21 samples.

Results

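The ACC synthases (ACS) are the enzymes that turn S-adenosylmethionine into 1-aminocyclopropane-1-carboxylate (ACC), the precursor of the plant hormone ethylene. The 9 Arabidopsis thaliana genes described here were chosen by locus as the family members ACS1, ACS2, ACS4, ACS5, ACS6, ACS7, ACS8, ACS9 and ACS11. All 9 loci were found on the array, each with 1 feature (a set of probes summarised to 1 value), among 37118 features for 32627 loci. The rule names loci and no measured value.

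ACC synthesis is usually the limiting step of ethylene production, and ACC oxidases (ACO) then convert ACC into ethylene. The hormone is made within minutes to hours of wounding, flooding, pathogen contact and many chemical stresses, and the ACS genes differ in which stimulus raises their transcripts. The proteins fall into types by their C-terminal ends. ACS1, ACS2 and ACS6 have a long end with kinase sites, and phosphorylation of ACS2 and ACS6 by the mitogen-activated protein kinases MPK3 and MPK6 slows their breakdown. ACS4, ACS5, ACS8 and ACS9 are bound by ETO1 and its relatives EOL1 and EOL2, which direct them to degradation. ACS7 has a short end that lacks these features. ACS11 was given no type here.

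The plants, of the Col-0 background, spent 7 days on medium with 1 mM phosphate and then 2 days without phosphate, so all groups had been deprived of phosphate before treatment. They were next placed in liquid medium for 1.5 h. Of the samples, 3 were wild type in medium with no supplement, 3 were wild type with 30 µM arsenate, and the last 3 samples were of genotype OXW6, labelled as overexpressing the transcription factor WRKY6, also with 30 µM arsenate. Per the labels each sample was an independent biological one, and each was hybridised to its own single-colour NimbleGen array. The labels name neither the promoter of the overexpression construct, nor how many lines carried it, nor the tissue taken, and no group of OXW6 plants without arsenate was among the 9 arrays. Arsenate is an analog of phosphate that plant cells take up through phosphate transporters. Values are log2 signals, so a difference of 1 is a doubling of signal.

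Array medians lay between 12.33 and 12.42 (log2), the top of the scale between 15.95 and 15.97, and replicate arrays correlated across features with r between 0.9804 and 0.9955. Features close to either end of this scale have little room to differ further in that direction. The WRKY6 feature (AT1G62300) read 15.61, 15.50 and 15.55 without supplement, 15.82, 15.85 and 15.85 in wild type with arsenate, and 15.82, 15.80 and 15.87 in the labelled overexpressor. All arsenate arrays lay near the top of the scale, and the genotypes differed by -0.01 (95% interval -0.15 to 0.14, adjusted p = 0.99), so this feature gave no check of the overexpression label. Signals of features typed as pseudogenes (3863) had medians 0.564 to 0.646 above the control mean on wild-type arsenate arrays, and -0.0231, 0.694 and 0.272 on the overexpressor arrays. In this class overexpressor replicate 2 thus lay near the wild-type arsenate arrays, replicate 1 near the control mean and replicate 3 between them. The omission of replicate 2 is named where it changed a call. Beside the marker counts that follow, 18.9% of all features were called higher and 20.2% lower with arsenate in wild type. A count of 1 in a list of 6 or 4 is near these shares. Of 6 green-tissue markers 0 were higher and 1 was lower with arsenate in wild type, and the log2 of their summed signal ranged from 17.96 to 18.07 over all arrays. RBCS1A, RBCS3B, RCA and PSBO1 lay at the top of the scale and made up most of this sum, so it could show little change. The dimmer LHCB1.1 and LHCB2.1 differed by -0.57 (limma, adjusted p = 0.029) and -0.35 (adjusted p = 0.13), each with all arsenate arrays below the controls. Of 6 root markers 5 were lower, with sums of 16.53 to 16.9 without supplement, 15.48 to 16.01 with arsenate in wild type and 15.94 to 16.31 in the labelled overexpressor. Of the flower markers, AG, AP3 and PI lay in the dimmest of 4 equal bands of features ranked by mean signal, as did the seed marker SESA1. Of the 4 flower markers 1 was lower, with sums of 11.98 to 12.39 without supplement, 10.98 to 11.15 with arsenate in wild type and 10.7 to 11.78 in the labelled overexpressor, and of the 4 seed markers 1 was higher, with sums of 11.22 to 11.6, 11.47 to 12.11 and 12.15 to 12.56. In bulk RNA, fewer cells of a type and less RNA per cell cannot be told apart, and the part of root-marker loss in the falls described below was not tested.

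In wild type, the question was how the family responded to arsenate within 1.5 h. ACS1, ACS2, ACS6 and ACS7 rose, ACS5 fell, and ACS4, ACS8, ACS9 and ACS11 did not pass the test. The stress-responsive ACS6 and ACS2 rose 2.11-fold and 1.87-fold, ACS7 rose 1.75-fold and ACS1 1.27-fold, and ACS5 fell 2.95-fold, each in 3 samples against 3. The test was limma on all features with Benjamini-Hochberg adjustment, at an adjusted p of 0.05. Arsenate moved a large share of the transcriptome at this time, with 39.1% of all features called, 18.9% higher and 20.2% lower. Against that background, 4 of 9 family members (44.4%) were higher and 1 of 9 (11.1%) lower. The median difference of the family was 0.177 (log2), and that of all features was -0.019. By type, 3 of 3 genes with the long kinase-site end rose, including ACS1 in the dimmest signal band, and of the 4 genes for ETO1-bound proteins 0 rose and 1 fell. The difference between the types was not tested.

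**Figure D1:**
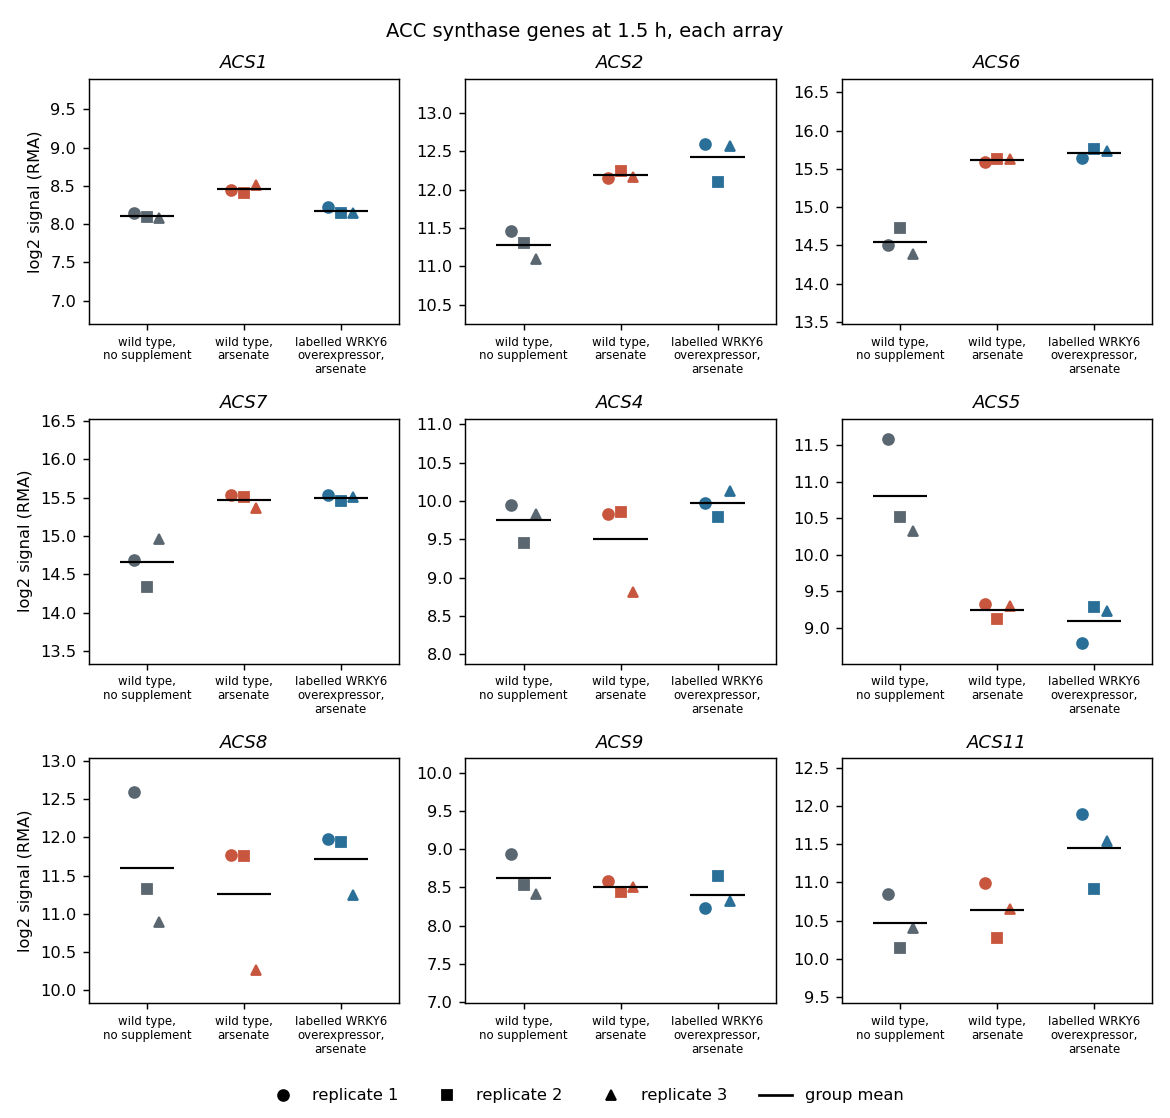
Log2 RMA signal (y axis) of each ACC synthase gene on every array, by group (x axis): wild type without supplement, wild type with arsenate, and the labelled WRKY6 overexpressor with arsenate. Symbols are replicates 1 to 3 and bars are group means. The arsenate arrays of ACS2, ACS6 and ACS7 lay above all control arrays in both genotypes and those of ACS5 lay below. For ACS1 the wild-type arsenate arrays lay above those of both other groups.

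ACS6 (AT4G11280), whose protein is stabilised by MPK3 and MPK6 phosphorylation and which responds to many stresses, gave log2 signals of 14.51, 14.72 and 14.39 without supplement and 15.59, 15.63 and 15.63 with arsenate. All 3 arsenate arrays lay above all 3 controls, and close to the top of the scale. The rise was 1.08 ± 0.093 (SE, adjusted p = 0.00011), the family's smallest adjusted p.

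ACS2 (AT1G01480), the other known substrate of these kinases, read 11.46, 11.30 and 11.09 without supplement and 12.15, 12.25 and 12.17 with arsenate. The groups were separate, and the treated arrays lay within a narrow band. ACS2 lay between the percentiles 38.52 and 52.31 of the table, away from both ends of the scale, and its rise was 0.91 ± 0.15 (95% interval 0.57 to 1.24, adjusted p = 0.0025).

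ACS1 (AT3G61510), which encodes a protein known to be inactive as a homodimer but active when paired with other ACS proteins, read 8.15, 8.10 and 8.08 without supplement and 8.45, 8.41 and 8.51 with arsenate. The arsenate arrays again lay above all controls, but the whole range was small and lay in the dimmest band of features. The rise was 0.35 ± 0.064 (adjusted p = 0.0046). In that band 18.2% of features were called higher and 9.04% lower, with a median difference of 0.10 and with 90% of differences between -0.644 and 0.724, so ACS1 moved within the range of other dim features. Whether its signal came from ACS1 transcript or from other RNA was not tested, since the table holds no detection calls.

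ACS7 (AT4G26200), the gene of the short-ended protein, read 14.68, 14.33 and 14.96 without supplement and 15.53, 15.51 and 15.36 with arsenate. The control arrays were more scattered than the treated ones, but the groups did not overlap. The rise was 0.81 ± 0.14 (adjusted p = 0.0038), and like that of ACS6 it ended near the top of the scale.

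ACS5 (AT5G65800), the gene altered in the ethylene overproducer eto2 and needed for ethylene production in response to cytokinin, read 11.58, 10.52 and 10.33 without supplement. With arsenate it read 9.32, 9.13 and 9.30. Every treated array lay below every control, and control replicate 1 stood above the other controls. The fall was -1.56 ± 0.30 (95% interval -2.25 to -0.87, adjusted p = 0.0056), and without control replicate 1 it was still called. In its signal band, the one above the dimmest, 31.7% of features were called lower and 25.7% higher.

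The remaining 4 genes did not pass the test, and their intervals show what the fit without a replicate block left undetected. In the fit blocked on replicate number, the SE was 0.28 in place of 0.52 for ACS8 and 0.085 in place of 0.29 for ACS11. Neither passed there (adjusted p = 0.34 and 0.13), and the SEs of ACS4 and ACS9 were about the same in both fits. ACS4 (AT2G22810), known as an auxin-induced gene, read 9.95, 9.45 and 9.83 without supplement and 9.83, 9.86 and 8.82 with arsenate. A single arsenate array lay below the rest, and the difference was -0.24 (95% interval -0.88 to 0.39, adjusted p = 0.52). ACS8 (AT4G37770), also auxin-responsive, had the widest scatter in the family, with 12.59, 11.33 and 10.90 without supplement and 11.77, 11.75 and 10.27 with arsenate. Its groups overlapped and its interval, -1.54 to 0.86, includes changes as large as those of ACS6 in the downward direction. ACS9 (AT3G49700), the gene altered in the ethylene overproducer eto3, read 8.94, 8.53 and 8.42 without supplement and 8.58, 8.43 and 8.50 with arsenate. Its values lay between the percentiles 8.04 and 19.27 of the table, and the difference was -0.12 (95% interval -0.48 to 0.24, adjusted p = 0.57). ACS11 (AT4G08040) read 10.85, 10.15 and 10.40 without supplement and 10.997, 10.28 and 10.65 with arsenate. Each arsenate array lay slightly above the control of its own number, and the difference was 0.18 (95% interval -0.49 to 0.84, adjusted p = 0.66).

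The groups were separate for 4 genes above the controls and 1 gene below, the same genes as were called. Over all features the groups were separate for 55.2%, with 27.6% above and 27.6% below. The 5 calls held under every alternative setting that kept the gene, including the left-out arrays and the replicate block. A filter on dim features removed ACS1, ACS4, ACS5 and ACS9 from the test and so left 3 calls.

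The second comparison asked what the WRKY6 overexpression genotype changed under arsenate. With limma, 0 of the 9 ACC synthase genes passed an adjusted p of 0.05, and over all features 4 (0.0108%) did, 0.00539% in each direction. At an unadjusted p under 0.05 there were 2 family members, ACS1 and ACS11 (22.2%), beside 7.63% of all features. The label of these plants could not be checked with the WRKY6 feature, as given above.

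ACS1 read 8.22, 8.15 and 8.15 in the labelled overexpressor with arsenate, against 8.45, 8.41 and 8.51 in wild type with arsenate. All 3 overexpressor arrays lay below all wild-type arsenate arrays. The difference was -0.28 ± 0.064 (95% interval -0.43 to -0.14, unadjusted p = 0.0021, adjusted p = 0.39). The median pseudogene signal on the same overexpressor arrays was -0.0231, 0.694 and 0.272 from the control mean, and its part in the ACS1 values was not tested. The difference was negative under all alternatives, between -0.321 and -0.227, with adjusted p from 0.089 to 0.88.

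ACS11 read 11.89, 10.91 and 11.54 in the labelled overexpressor against 10.997, 10.28 and 10.65 in wild type, both with arsenate. The groups overlapped, since overexpressor replicate 2 lay below wild-type replicate 1, but each overexpressor array exceeded the wild-type array of its own number, by 0.894, 0.634 and 0.883. The difference was 0.80 ± 0.29 (95% interval 0.14 to 1.47, unadjusted p = 0.024, adjusted p = 0.61). In the fit blocked on replicate number it had an SE of 0.085 and an adjusted p of 0.079, and it passed under none of the alternatives run, whose adjusted p ranged from 0.068 to 1.

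ACS6 was the other gene whose genotypes were separate under arsenate, with 15.64, 15.76 and 15.73 in the labelled overexpressor above the wild-type values. The difference was 0.10 ± 0.093 (95% interval -0.12 to 0.31, adjusted p = 0.81). The feature lay near the top of the scale in both genotypes, so this interval covers the signal and sets no bound on the transcript. Separate groups were thus seen for 1 gene above and 1 below, where 6.39% of all features were above and 4.06% below (10.5% together).

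ACS7 read 15.53, 15.45 and 15.50 in the labelled overexpressor, a difference of 0.03 (95% interval -0.30 to 0.36) on a feature near the top of the scale in both genotypes, so the interval covers the signal and sets no bound on the transcript. ACS5 read 8.79, 9.29 and 9.23, a difference of -0.15 (95% interval -0.84 to 0.54). ACS2 read 12.60, 12.10 and 12.57, and 2 of its 3 arrays lay above all wild-type arsenate arrays while replicate 2 lay below them. Its difference was 0.23 ± 0.15 (95% interval -0.11 to 0.57, adjusted p = 0.69).

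ACS4 read 9.98, 9.79 and 10.13 in the labelled overexpressor, ACS8 11.98, 11.93 and 11.24, and ACS9 8.23, 8.65 and 8.32, and each overlapped with wild type under arsenate. The differences were 0.47 ± 0.28 for ACS4, 0.45 ± 0.52 for ACS8 and -0.11 ± 0.16 for ACS9.

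**Figure D2:**
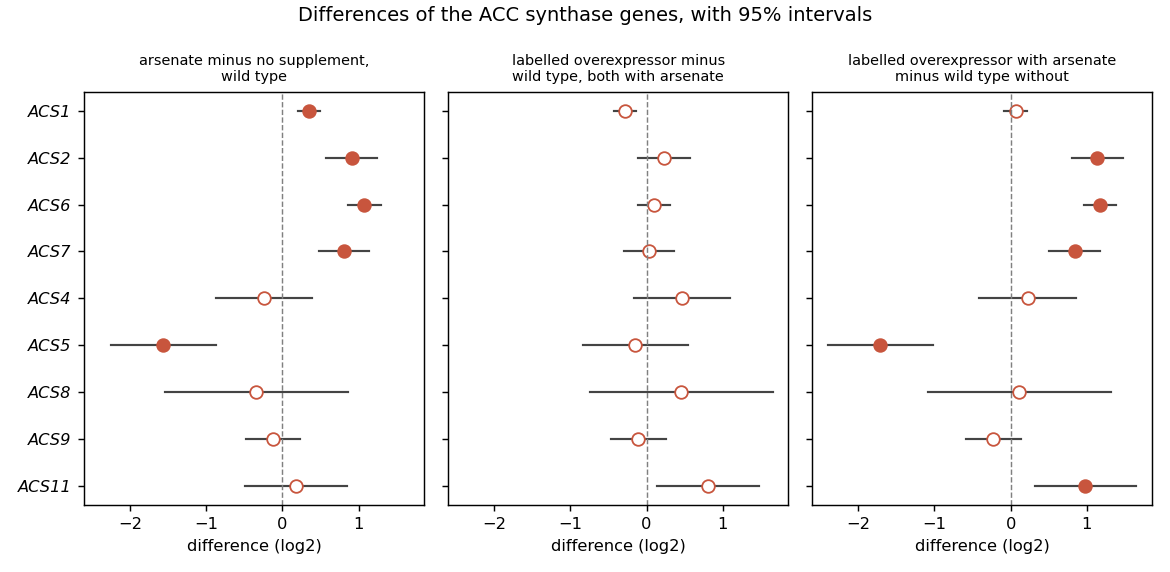
Difference in log2 signal (x axis) of each ACC synthase gene (y axis) in the comparisons named above each panel, with 95% intervals from the limma fit. Filled points passed an adjusted p of 0.05. Filled points are the 5 genes called with arsenate in wild type, none between the genotypes under arsenate, and 5 between the labelled overexpressor with arsenate and wild type without.

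The third comparison set the labelled overexpressor with arsenate against wild type without supplement, so genotype and treatment differ together and cannot be told apart. It shares the control arrays with the first comparison and the overexpressor arrays with the second. Here 5 of 9 genes passed (55.6%), with 20.6% of all features called. ACS2, ACS6, ACS7 and ACS11 were higher (44.4% of the family, against 8.12% of all features) and ACS5 was lower (11.1%, against 12.5%). These 5 genes were also the ones whose groups were separate, as they were for 35.8% of all features (14.4% above and 21.4% below). The family's median difference was 0.222.

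Side by side, ACS6 was 1.08 above the untreated wild type in wild type with arsenate, and 1.17 ± 0.093 above it (adjusted p = 7.8e-05) in the labelled overexpressor with arsenate. The differences from the same controls, in the same order, were 0.91 and 1.14 ± 0.15 (adjusted p = 0.0011) for ACS2, 0.81 and 0.84 ± 0.14 (adjusted p = 0.0043) for ACS7, and -1.56 and -1.71 ± 0.30 (adjusted p = 0.0049) for ACS5. For ACS6 and ACS7 both arsenate groups lay near the top of the scale, so these pairs of values set no bound on how far the transcripts differed. ACS1 was 0.06 ± 0.064 above the controls in the labelled overexpressor (95% interval -0.08 to 0.21, adjusted p = 0.52), after 0.35 in wild type. ACS11 was 0.98 ± 0.29 above the controls (adjusted p = 0.046), after 0.18 in wild type. That call for ACS11 held in 8 of 16 alternatives, with adjusted p from 0.00043 to 0.13. It was lost without overexpressor replicate 1 (0.099), overexpressor replicate 3 (0.12), control replicate 2 (0.13) or control replicate 3 (0.13). It was also lost with the further quantile normalization (0.051), with only the compared groups (0.072), and without wild-type arsenate replicate 1 (0.051) or 3 (0.07). Whether these genes respond to arsenate differently in the 2 genotypes could not be tested without untreated OXW6 plants.

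For each gene the order of the 3 group means can be read as a level description. The order was control, then wild type with arsenate, then labelled overexpressor for ACS2, ACS6, ACS7 and ACS11, with the upper pair of means not distinguished by the test in any of them. For ACS11 the lower pair was not distinguished either. For ACS5 it was the opposite, with the lower pair not distinguished. ACS1 was highest in wild type with arsenate (8.46 ± 0.051, SD), and its means of 8.17 ± 0.042 in the labelled overexpressor and 8.11 ± 0.037 in the control were not distinguished.

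Family members were then set beside the rest of the pathway, as 59 genes in 7 lists with the brightest feature used where a gene had several. With arsenate in wild type 8 of the 59 were higher, 10 were lower and 41 did not pass, and their median difference was 0.0041. The shares, 13.6% higher and 16.9% lower, were below the 18.9% and 20.2% of all features. Many of the 59 genes lay in the brightest signal band, however, where 14.2% of features were called higher and 12.5% lower. Whether the pathway was called more or less often than features of like signal was not tested. The split of 8 higher and 10 lower became 12 higher and 7 lower when each array was centred on its median. That change of scaling raised the higher share of all calls from 48.3% to 59.7% and left the calls of the ACC synthase genes as they were.

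Upstream of the family, S-adenosylmethionine supply and the methionine cycle that recovers its sulfur were represented by 13 genes, of which 0 rose and 1 fell. This was ARD4 (AT5G43850), an acireductone dioxygenase of the methionine salvage cycle, with a difference of -0.71 ± 0.15 (adjusted p = 0.0087). Of 3 further genes named after the family, 0 were called higher and 2 lower. They are the pseudogene ACS3, which was not called, and ACS10 and ACS12, whose proteins resemble ACS proteins but are aminotransferases without ACC synthase activity. ACS10 (AT1G62960) read 14.95, 15.29 and 14.92 without supplement and 14.28, 14.56 and 14.25 with arsenate, a fall of -0.69 ± 0.13 (adjusted p = 0.0047). ACS12 (AT5G51690) fell by 0.44 (adjusted p = 0.037), a call lost in 6 of 16 alternatives.

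Downstream, of 5 ACC oxidase genes 0 rose and 2 fell with arsenate in wild type. ACO5 (AT1G77330) read 14.90, 14.73 and 14.53 without supplement, 13.89, 13.45 and 13.54 in wild type with arsenate, and 14.12, 13.89 and 14.09 in the labelled overexpressor. Its fall in wild type was -1.09 ± 0.14 (adjusted p = 0.00084). The labelled overexpressor overlapped with neither other group, but its lowest array (13.8884) barely exceeded the highest wild-type arsenate array (13.8859). The genotypes differed by 0.41 ± 0.14 under arsenate (adjusted p = 0.6), and 10.5% of all features were separate between them. ACO3 (AT1G12010) fell by 0.32 (adjusted p = 0.011) in wild type and was 0.27 ± 0.072 higher in the labelled overexpressor under arsenate, a difference that did not pass (adjusted p = 0.49). Of 4 genes for ACC transport and turnover, ACD1 (AT1G48420), encoding an ACC deaminase, fell by 0.35 (adjusted p = 0.0077), and LHT1, whose transporter carries amino acids and ACC, was called higher by 0.22 (adjusted p = 0.041) and lost the call in 8 alternatives.

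Among 11 genes for proteins that act on ACS proteins or transcripts, 3 rose and 2 fell. MKK9 (AT1G73500), a kinase upstream of MPK3 and MPK6, read 14.32, 14.13 and 14.49 without supplement and 15.24, 15.10 and 15.37 with arsenate, a rise of 0.92 ± 0.11 (adjusted p = 0.00058). WRKY33 (AT2G38470), a transcription factor known to bind the ACS2 and ACS6 promoters, rose by 0.51 ± 0.076 (adjusted p = 0.0018), with arsenate arrays near the top of the scale. MKK4 was the third gene that rose. XBAT32, a ubiquitin ligase gene whose product targets ACS4 and ACS7, fell by 0.66 (adjusted p = 0.025) and EOL1 by 0.40 (adjusted p = 0.033). The calls of MKK4, XBAT32 and EOL1 were lost in 7, 3 and 5 alternatives. MKK4 came under the rule for named genes through the genotype comparison, not this one, and was named here after its values were seen.

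Of 14 perception and signalling genes, the ethylene receptor gene ETR2 rose by 0.45 (adjusted p = 0.019), whereas the transcription factor gene EIL1 and EIN2, the central membrane protein of the pathway, fell by 0.50 (adjusted p = 0.0045) and 0.29 (adjusted p = 0.02). The calls of ETR2 and EIN2 were lost in 2 and 3 alternatives. Of 9 ethylene response genes 3 rose and 0 fell. ERF1 (AT3G23240), a transcription factor gene activated by EIN3, read 11.99, 11.20 and 11.44 without supplement, 13.43, 13.32 and 13.26 in wild type with arsenate, and 13.51, 13.09 and 13.16 in the labelled overexpressor. Both arsenate groups lay above all controls, with a rise of 1.80 ± 0.20 in wild type (adjusted p = 0.00038). EDF1 and EDF3, transcription factor genes known to be ethylene-induced, rose by 1.06 ± 0.15 (adjusted p = 0.0011) and 1.01 ± 0.16 (adjusted p = 0.0024).

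**Figure D3:**
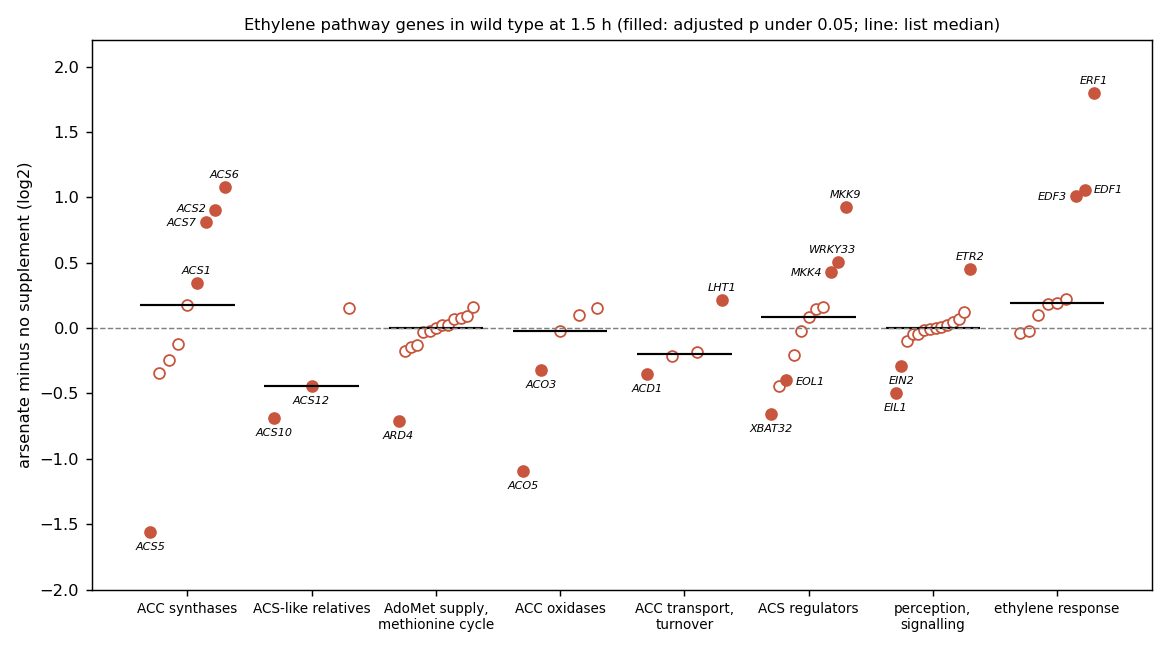
Difference in log2 signal between wild type with arsenate and wild type without supplement (y axis) for the 9 ACC synthases and the 59 other pathway genes by list (x axis). Filled points passed an adjusted p of 0.05 and are named, and bars are list medians. ACS2, ACS6 and ACS7 lie near MKK9, EDF1 and EDF3 in size of signal difference, while the called ACC oxidases, ACO5 and ACO3, lie below 0. With arsenate ACS6 and ACS7 were near the top of the scale, so their sizes set no upper bound on the transcript change.

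Between the genotypes under arsenate, 0 of the 59 genes passed with limma, and 4 did at an unadjusted p under 0.05 (6.78%, against 7.63% of all features), a share near the background. Besides ACO3 and ACO5 these included PDF1.2 (AT5G44420), a defensin gene activated by ethylene and jasmonate together, which was 1.18 lower (a difference of -1.18 ± 0.32, adjusted p = 0.49). PDF1.2 read 15.08, 14.75 and 14.37 in wild type and 14.13, 13.56 and 12.97 in the labelled overexpressor, and the groups were separate. In the third comparison 6 of the 59 were higher (10.2%, against 8.12% of all features) and 8 lower (13.6%, against 12.5%). In the brightest signal band 11.8% of features were higher and 7.82% lower, and the lists were not matched for signal. ERF1 was 1.71 above the controls (adjusted p = 0.00063), MKK9 was 0.93 above (adjusted p = 7e-04) and ACO5 fell by 0.69 (adjusted p = 0.01).

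To describe how the called genes of the family ran over the arrays, the features of other loci most correlated with each were listed, over all 9 arrays, with no test. The points share the arrays and the group differences, which enter each correlation. ACS6 ran closest to CYP81D11 (Pearson's r = 0.9973), XT1 (0.9942) and PDX1.2 (0.9938), and 804 features passed 0.95 with it. ACS7 ran closest to UGT85A1 (0.9916), ORS1 (0.9897) and WRKY15 (0.9893), with 283 features past 0.95. For ACS2, the closest were the pseudogene AT5G29024 (0.9828), SYTD (0.9788) and RMA1 (0.9777), with 200. For ACS5, they were AT3G13030 (0.9799), ECT5 (0.976) and the long noncoding RNA locus AT3G63445 (0.9754), with 50. ACS1 and ACS11 had fewer features so close to them. Past 0.95 there were 5 features with ACS1, led by AT2G19000 (0.985), AT4G14805 (0.9635) and AT3G30769 (0.9593). There were 9 with ACS11, among them AT2G44600 (0.9623) and AT2G34030 (0.961).

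Members were also compared with each other within groups, as deviations from group means over the 9 arrays. Of the 36 pairs, ACS6 and ACS7 had the lowest correlation (r = -0.939) and ACS5 and ACS9 the highest (0.891). Same-numbered arrays deviate together over all features, so these values are descriptions with no test.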

How the data were processed

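The authors deposited a table of log2 values for the 9 arrays at 1.5 h, summarised with RMA per the submitters' processing notes (version: not given in the sources used here). This method subtracts background, equalises array distributions and fits a robust value per feature, so it removes any shift shared by most transcripts. Cy3-labelled cDNA was hybridised, per the labels' protocols. No scan date, slide or detection call was given. Features were tested with limma 3.58.1 in R 4.3.3 (lmFit over all 3 groups, contrasts.fit, eBayes), two-sided, with Benjamini-Hochberg adjustment over 37118 features per comparison, no filter and no replicate block. A call is an adjusted p under 0.05, SEs are the moderated ones, and intervals cover 95%. The code was tested on simulated data. Gene names came from the RefSeq table of TAIR10.1, in which 31993 loci matched and 634 did not. Coordinates are not given because the array's build is not named. The arrays at 8 h were not used, because their probe sets are not paired with genes here.

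The members, the pathway lists and the tests were chosen with earlier results of these data known. The text could name all members, WRKY6, up to 4 genes per list and comparison by smallest adjusted p, and the 3 features most like each called member. Of the last, 1 item is not reported here. Replicate numbers come from the sample titles, and the deviations of same-numbered arrays from group means correlated between 0.29 and 0.63, above the minimum of 0.1. Same-numbered samples thus varied together across groups, although labelled as independent. The main fit had no replicate block, so its SEs, intervals and p-values do not use this pairing. A fit with the block was run as an alternative. The alternatives were this block, median centring, a further quantile normalization, leaving out features below the 40th percentile in all groups, fitting only the compared groups, a trended robust variance, leaving out pseudogene, tRNA and organelle features, and leaving out each array. Precision is limited by having 3 arrays in each group.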

Additional observations from a re-analysis of the deposited data

How the results depend on the processing

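The calls of ACS1, ACS2, ACS5, ACS6 and ACS7 with arsenate in wild type, and of ACS2, ACS5, ACS6 and ACS7 in the third comparison, held in direction and significance in every alternative that kept the gene. The filter on dim features left 3 calls in place of 5 in wild type, because it removed ACS1 and ACS5 from the test. With the replicate block the counts of called ACC synthase genes were again 5, 0 and 5 in the 3 comparisons, and those of the other pathway genes were 20, 0 and 21 in place of 18, 0 and 14. With single arrays left out, the latter ranged from 12 to 18 in wild type and from 12 to 15 in the third comparison. Some uncalled differences changed sign. The genotype difference of ACS7 under arsenate was -0.00952 with median centring and -0.0247 to 0.06 with arrays left out. Over left-out arrays, the arsenate difference in wild type ranged from -0.422 to 0.099 for ACS4, -0.695 to 0.155 for ACS8, -0.228 to 0.0333 for ACS9 and -0.000217 to 0.369 for ACS11. The genotype difference ranged from -0.242 to 0.00663 for ACS5, -0.0413 to 0.706 for ACS8 and -0.0277 to 0.00747 for WRKY6, and in the third comparison ACS8 ranged from -0.241 to 0.605. The background moved more: the count of all features called with arsenate in wild type, 14517, was 8959 without control replicate 3 and 9019 without arsenate replicate 1. The count of 4 features called between genotypes became 12 with the block, 105 without overexpressor replicate 2, 1 without wild-type arsenate replicate 2, and 0 with only the compared groups or without any 1 of 6 other arrays. The causes were not tested.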
